A study of Homo sapiens with 6 samples.

Results

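The CYP4F genes of chromosome 19 encode cytochrome P450 enzymes that hydroxylate fatty acids and related lipids, in most cases at the far (omega) end of the chain. The 6 genes described here, CYP4F22, CYP4F8, CYP4F3, CYP4F12, CYP4F2 and CYP4F11, were taken from the count table by symbol, as 6 of its 57820 rows. They were chosen by symbol as a family, with the fold changes between the groups described below already known, so their difference between the groups is a description here, and nothing is read from the calls that fits over all genes make on them. RNA came from HEK293T, a line of human embryonic kidney cells carrying the SV40 large T antigen. RfxCas13d, an RNA-guided nuclease that cleaves transcripts matching its crRNA, was used in both groups. The crRNA was non-targeting in 3 libraries (NT1, NT2 and NT3) and matched mCherry, a red fluorescent protein foreign to human cells, in the other 3 (TAR1, TAR2 and TAR3). The labels do not say how the nuclease was delivered or whether the cells carried mCherry. They call the replicates biological without saying which steps were separate, so the spread reported is that between these libraries.

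As background, P450 enzymes are heme proteins of the endoplasmic reticulum membrane that receive electrons from the reductase POR. Omega-hydroxylation by CYP4F enzymes opens a route by which leukotriene B4, arachidonic acid, very long chain fatty acids and the side chains of vitamins E and K are inactivated or handed on to peroxisomal oxidation. CYP4F2 is best known from liver and kidney, where it converts arachidonic acid to 20-HETE and hydroxylates the vitamin K side chain. CYP4F3 occurs in a neutrophil form that inactivates leukotriene B4 and a liver form, made by alternative promoters and exons of 1 gene. CYP4F22 makes the omega-hydroxylated ultra-long fatty acids of skin acylceramides, CYP4F8 is known from seminal vesicle, and CYP4F11 and CYP4F12 from liver and other epithelia.

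On GRCh38, in the GENCODE 29 annotation, the 6 protein-coding genes lie within 426.4 kb of chromosome 19. From the start of the cluster they are CYP4F22 (ENSG00000171954.8, 15508493 to 15552317, plus strand), CYP4F8 (ENSG00000186526.8, 15615218 to 15630638, plus strand), CYP4F3 (ENSG00000186529.10, 15640897 to 15662825, plus strand) and CYP4F12 (ENSG00000186204.10, 15672757 to 15697174, plus strand). CYP4F2 (ENSG00000186115.8, 15878023 to 15898120) and CYP4F11 (ENSG00000171903.12, 15912367 to 15934867) follow on the minus strand. CYP4F3 and CYP4F2 are separated by 215.2 kb.

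The coding sequences of these genes are close copies, which matters for any count by gene. Identity was measured on the transcript of each gene with the longest coding sequence. CYP4F3 and CYP4F2 were the closest pair, with 91.8% of 1551 aligned coding bases identical. CYP4F2 and CYP4F11 followed with 89.5%, and CYP4F22 was the most distant member, with 71.5% to 74.0% to the others. The longest run of coding bases that CYP4F3 and CYP4F2 have in common is 112 bases, coding bases 1449 to 1560 in both, at the end of the reading frame. It is shown because a read that lies inside it fits both genes equally well:

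CYP4F3 and CYP4F2: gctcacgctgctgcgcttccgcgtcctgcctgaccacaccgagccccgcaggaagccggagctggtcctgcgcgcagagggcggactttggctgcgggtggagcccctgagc

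The stretch of 100 coding bases in which the genes differ most, with 32 differences, is coding bases 271 to 370 of both. It is shown because reads from it do tell the genes apart, and capitals mark the bases that differ:

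CYP4F3: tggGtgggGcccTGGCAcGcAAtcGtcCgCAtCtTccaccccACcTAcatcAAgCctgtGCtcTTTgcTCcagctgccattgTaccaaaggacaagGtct
CYP4F2: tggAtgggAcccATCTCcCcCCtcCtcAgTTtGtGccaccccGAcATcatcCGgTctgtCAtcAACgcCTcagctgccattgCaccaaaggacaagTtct

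The libraries were sequenced as paired ends of a length that the labels do not state. Sequence shared between members was therefore measured for windows of several lengths. Of all windows of 50 bases along the CYP4F2 transcript, 17.2% occurred unchanged in a CYP4F3 transcript. At 75 bases the share was 9.13%, at 100 bases 4.03% and at 150 bases 1.02%. Seen from the longer CYP4F3 transcript, 8.10%, 4.28%, 1.88% and 0.469% of windows occurred in CYP4F2. No window of 75 bases or more was shared by any other pair of members, and CYP4F22 shared none at 50 bases. How reads that fit both genes were counted is not stated, so the split of counts between CYP4F3 and CYP4F2 is uncertain. The sum of both genes is less open to this. The shares count unchanged windows only and take no account of mismatches, read pairs or uneven coverage. They set no bound on the counts affected.

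Upstream sequence is shown for CYP4F3 and CYP4F2, whose libraries did not overlap between the groups, and for CYP4F8 and CYP4F11, which had no reads, so that both kinds can be compared. The sequences are from RefSeq on GRCh38.p14 and run 5′ to 3′ towards the start of the gene's RNA, up to the first base that GENCODE 29 annotates as an exon. Of the 6 members 5 had an entry. They are chr19:15641062-15641293 for CYP4F3 and chr19:15614968-15615217 for CYP4F8 on the plus strand, and chr19:15898121-15898324 for CYP4F2 and chr19:15934868-15935117 for CYP4F11 on the minus strand. Capitals mark matches to the motifs searched. The CCAAT box lies on the other strand in each case, and is read here as its reverse complement. The AP-1 type site TGANTCA is marked in CYP4F3. The core of the antioxidant response element, TGACNNNGC, is marked on the other strand in CYP4F8 and CYP4F11:

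CYP4F3: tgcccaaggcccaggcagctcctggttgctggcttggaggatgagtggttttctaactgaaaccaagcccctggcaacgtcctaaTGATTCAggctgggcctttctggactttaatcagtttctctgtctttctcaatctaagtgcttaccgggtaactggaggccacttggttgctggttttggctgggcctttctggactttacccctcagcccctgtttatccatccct
CYP4F2: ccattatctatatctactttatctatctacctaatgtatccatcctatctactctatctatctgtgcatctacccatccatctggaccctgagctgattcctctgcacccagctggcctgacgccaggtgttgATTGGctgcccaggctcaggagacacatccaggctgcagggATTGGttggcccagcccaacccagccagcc
CYP4F8: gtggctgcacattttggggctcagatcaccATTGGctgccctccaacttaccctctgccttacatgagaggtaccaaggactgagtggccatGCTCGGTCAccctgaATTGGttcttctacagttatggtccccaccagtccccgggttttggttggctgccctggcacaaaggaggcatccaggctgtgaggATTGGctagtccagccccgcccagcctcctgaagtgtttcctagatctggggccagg
CYP4F11: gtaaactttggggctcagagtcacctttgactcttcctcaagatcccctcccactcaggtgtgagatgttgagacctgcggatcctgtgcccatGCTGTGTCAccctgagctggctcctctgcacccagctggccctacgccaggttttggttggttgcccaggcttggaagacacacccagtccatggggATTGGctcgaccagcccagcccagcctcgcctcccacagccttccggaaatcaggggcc

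The CYP4F3 window lies before the downstream of its annotated starts, and the upstream start of the gene is not covered by it. The best local alignment of the CYP4F3 and CYP4F2 sequences was 18 columns long. CYP4F2 instead resembled CYP4F11 (82.9% identical over 117 columns), the neighbour without reads, and CYP4F8 resembled CYP4F11 (69.5% over 223 columns). CCAAT, searched on both strands, occurred at 2 places in the CYP4F2 sequence shown, 3 in CYP4F8 and 1 in CYP4F11, and at none in CYP4F3. It occurs in 34.6% of the 35116 RefSeq windows of 300 bases. TGANTCA, which reads the same on both strands, occurred in the CYP4F3 window and in a second RefSeq window of CYP4F11. That window, chr19:15934480-15934779, is not shown because its first base already lies in an annotated exon. The motif is found in 7.71% of all windows. TGACNNNGC, which occurs in 13.3% of windows, was found in CYP4F8, CYP4F11 and CYP4F22 but in neither CYP4F3 nor CYP4F2. In CYP4F22, whose sequence is not shown, the match lies past the first annotated exon base. The motif TATAAA is found in 11.5% of all windows, CACGTG in 7.26% and the nuclear receptor element DR1 in 0.0228%, and none of them had a match in a window of the 5 members. No motif searched was present in both CYP4F3 and CYP4F2.

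Total counts lay between 21321850 and 25906275 per library, and 19676 genes had enough counts to be tested. The non-polyadenylated RNA 7SK took from 0.516% to 1.37% of counts in the non-targeting and from 0.439% to 1.15% in the mCherry-targeting libraries, varying within both groups. Of 9 listed markers of HEK293T and embryonic kidney 7 were matched, without LHX1 and NEFL, and all 7 were tested. Their summed level was 1111 to 1209 CPM in the non-targeting and 998 to 1144 CPM in the mCherry-targeting libraries. Most of it was IGF2BP1, at means of 607.2 and 548.4 CPM, and VIM, at 369.7 and 316.1 CPM. The sum alone does not identify the line.

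Of the 6 members, 3 passed the filter on low counts (CYP4F3, CYP4F2 and CYP4F22) and 3 were at or near 0 (CYP4F8, CYP4F11 and CYP4F12). CYP4F8 and CYP4F11 had a count of 0 in all 6 libraries. Over 144189657 counts in all, a count of 0 allows up to 3 counts, or 0.0209 CPM (the usual depth-scaled count unit, with library totals corrected by TMM scaling). CYP4F12 had 1 count, in NT2. These intervals and limits cover counting error only.

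CYP4F3, the leukotriene B4 hydroxylase gene, was at a trace in the non-targeting libraries, with 10 counts in NT1, 10 in NT2 and 12 in NT3. In the mCherry-targeting libraries it had 144 counts in TAR1, 73 in TAR2 and 41 in TAR3. The groups did not overlap. After scaling these were 0.454, 0.394 and 0.507 CPM in NT1 to NT3 and 5.99, 2.90 and 1.74 CPM in TAR1 to TAR3. The non-targeting libraries lay close together, while TAR1 stood well above TAR2 and TAR3. The exact Poisson 95% interval of TAR1, from 5.05 to 7.06 CPM, lay above those of TAR2, from 2.27 to 3.64 CPM, and TAR3, from 1.25 to 2.36 CPM, so the spread among the mCherry-targeting libraries was larger than counting error.

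The mean CPM of CYP4F3 was 0.452 ± 0.0563 (SD, n = 3) without and 3.54 ± 2.20 (SD, n = 3) with the mCherry crRNA. The fitted log2 fold change was 2.96 ± 0.47 (SE), or 7.79-fold higher, the highest of all 19676 tested genes. Leaving out TAR1 lowered it to 2.36. CYP4F3 passed the filter mainly through the group in which it is high.

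CYP4F2, the 20-HETE and vitamin K hydroxylase gene, followed the same order of groups at lower counts. It had 12, 14 and 3 counts in NT1 to NT3 and 69, 33 and 30 counts in TAR1 to TAR3, again without overlap. On the CPM scale these were 0.545, 0.552 and 0.127 in NT1 to NT3 and 2.87, 1.31 and 1.27 in TAR1 to TAR3. TAR1 was again the highest library, and NT3 the lowest, with an interval of 0.0261 to 0.370 CPM. The mean CPM was 0.408 ± 0.243 (SD, n = 3) and 1.82 ± 0.912 (SD, n = 3). The fitted log2 fold change was 2.14 ± 0.48 (SE), or 4.41-fold higher, the third highest of the tested genes. It was 1.65 without TAR1 and 1.71 without NT3. CYP4F2 passed the filter through the mCherry-targeting libraries.

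A fitted fold of at least 4 towards the mCherry-targeting libraries was found for 3 genes, 0.0152% of those tested, and 2 of them are CYP4F3 and CYP4F2. All 3 mCherry-targeting libraries lay above all 3 non-targeting ones for 2485 genes, 12.6% of those tested, and for both of these members. For CYP4F22 the reverse arrangement, found for 1844 genes (9.37%), did not hold. A fitted fold of at least 2 in the same direction was found for 97 genes (0.493%), again including CYP4F3 and CYP4F2. Since results of this comparison were known when the family was picked, nothing further is read from these counts.

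CYP4F22, the acylceramide hydroxylase gene and the most distant copy, had the groups in another order and overlapping. It had 30, 44 and 42 counts in NT1 to NT3 and 29, 35 and 23 in TAR1 to TAR3. In CPM these were 1.36, 1.73 and 1.77 against 1.21, 1.39 and 0.976, so that TAR1 and TAR3 lay below all non-targeting libraries and TAR2 did not. The mean CPM was 1.62 ± 0.227 and 1.19 ± 0.207 (SD, n = 3 each). Its fitted log2 fold change was -0.45 ± 0.26 (SE). An unprocessed pseudogene on the other strand inside CYP4F22 had 8 counts over all libraries. The other members overlap no gene of the table that the annotation places.

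**Figure D1:**
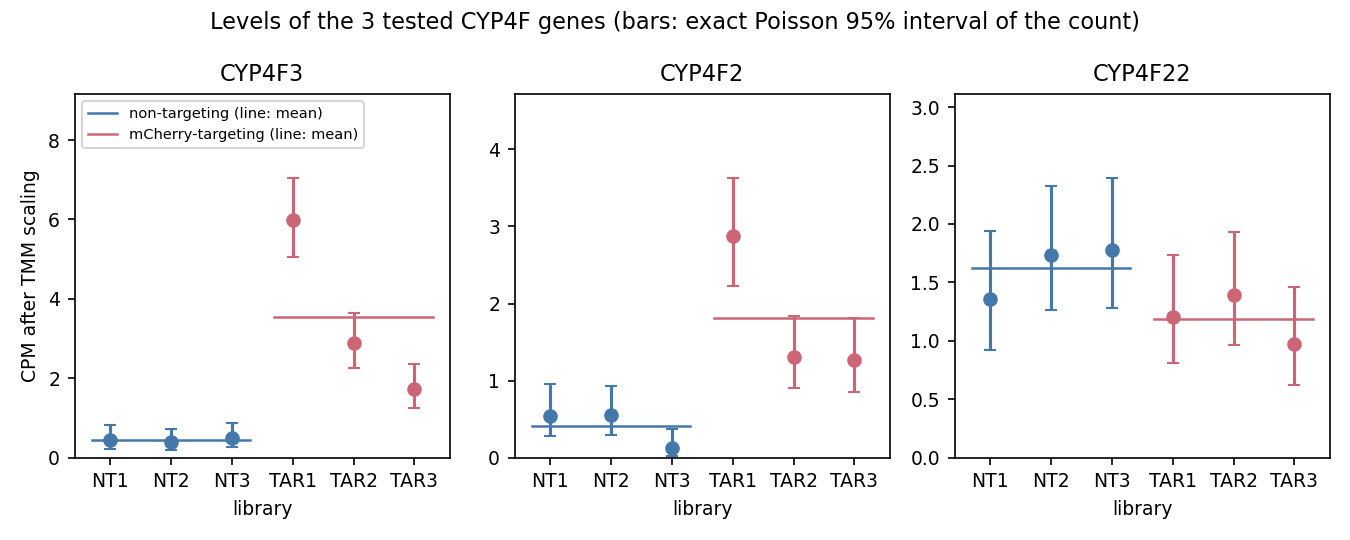
Level of the 3 tested CYP4F genes in each library, in CPM after TMM scaling (vertical axes, each from 0). Points are libraries with exact Poisson 95% intervals of their counts, and lines are group means (n = 3). For CYP4F3 and CYP4F2 all mCherry-targeting libraries lie above all non-targeting ones with TAR1 highest, at 5.99 and 2.87 CPM, whereas the groups overlap for CYP4F22.

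Calls on the members come from fits over all genes, on values known when the family was picked and on genes that passed the filter largely through the group in which they are high. They are given beside the share of all genes called, as a record of what each fit returned, and are no evidence of a difference. Of the 3 tested members 0 passed the edgeR quasi-likelihood test at an adjusted p under 0.05, where 2 of 19676 genes (0.0102%) did. These 2 are HMOX1 and MAP1A, both lower. At an unadjusted edgeR p under 0.05 the count was 2 members, both higher, where 16.1% of all genes had such a p and 10.0% had it and were higher. limma-voom called 0 members (0.00508% of genes), and DESeq2, which called 1.45% of the genes it gave an adjusted p, gave none to the 3 members. Without NT1 edgeR called 8.98% of 20102 genes (5.68% higher), CYP4F3 and CYP4F2 among them. Without TAR3 it called 0.00987% (0.00494% higher), which is 2 genes, 1 of them CYP4F3. Without NT2, NT3, TAR1 or TAR2 it called 0 members, against 0.00494%, 0.00985%, 0.00497% and 0.00495% of genes. CYP4F3 and CYP4F2 were also called with no filter on low counts (1.68% of genes), with a term for the 7SK share (3.62%) and with the replicate number as a block (6.14%, 4.46% higher). With block and GC correction CYP4F3 was called (0.0305% of genes), and with the GC correction alone 0 members were (0.00508%). Among non-targeting libraries 7SK was under 1% in NT1 alone, and among mCherry-targeting ones it was over 1% in TAR3 alone. The part of 7SK in these calls was not tested.

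After correction for GC content the log2 fold changes were 2.90 for CYP4F3, 2.20 for CYP4F2 and -0.32 for CYP4F22. GC content of the longest transcript was 45.4%, 52.6% and 58.1%. With a term separating libraries of high and low 7SK share they were 2.56, 1.90 and -0.44.

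Levels of different genes are compared per kilobase of the longest transcript. In the non-targeting libraries the order was CYP4F22 at 0.615 ± 0.0860 CPM per kb, CYP4F2 at 0.169 ± 0.101 and CYP4F3 at 0.0894 ± 0.0111 (SD, n = 3 each). CYP4F22 lay above both others in every library, and the ranges of CYP4F2 and CYP4F3 overlapped. In the mCherry-targeting libraries CYP4F2 was at 0.755 ± 0.379, CYP4F3 at 0.702 ± 0.435 and CYP4F22 at 0.451 ± 0.0784 CPM per kb (SD, n = 3 each). There CYP4F22 lay below CYP4F2 in every library, and the range of CYP4F3 overlapped both. The longest CYP4F3 transcript has 5050 bases against 2407 in CYP4F2. Without division by length the mean of CYP4F3 stood before that of CYP4F2 in both groups, with overlapping ranges. In NT1 and NT2 CYP4F2 was the higher, at 0.545 and 0.552 CPM against 0.454 and 0.394 CPM for CYP4F3.

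The share of CYP4F3 in the counts of CYP4F3 and CYP4F2 together was computed in each library. In TAR1, TAR2 and TAR3 it was 67.6% (Wilson 95% interval 61.1 to 73.5), 68.9% (59.5 to 76.9) and 57.7% (46.2 to 68.5). In NT1 to NT3 it was 45.5% (26.9 to 65.3), 41.7% (24.5 to 61.2) and 80.0% (54.8 to 93.0). The intervals of the 3 mCherry-targeting libraries overlap. In the non-targeting libraries 15 to 24 counts leave the share loosely determined, and NT3 had few CYP4F2 counts.

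Summed over the 6 genes, which does not depend on how counted reads were split among them, the level was 2.36, 2.72 and 2.41 CPM in NT1 to NT3. It was 10.1, 5.596 and 3.99 CPM in TAR1 to TAR3, above every non-targeting library. The group means were 2.50 ± 0.195 and 6.55 ± 3.15 CPM (SD, n = 3 each), 2.63-fold higher with the mCherry crRNA. CYP4F3 and CYP4F2 alone accounted for 0.633 to 0.999 CPM in the non-targeting and 3.01 to 8.86 CPM in the mCherry-targeting libraries.

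CYP4F pseudogenes, remnants of the family scattered over other chromosomes and the cluster itself, gave more counts than the genes. Sequence that they share with the members was not measured, nor were reads that fit several copies and may have been discarded. Of the 17 measured, 11 had no count and 3 were tested. The chromosome 9 copy CYP4F26P was at 11.3 ± 1.71 and 11.0 ± 0.810 CPM (SD, n = 3 each). CYP4F32P on chromosome 2 was at 1.84 ± 0.313 and 1.51 ± 0.247 CPM, and CYP4F35P on chromosome 18 at 0.595 ± 0.241 and 0.813 ± 0.0900 CPM. Summed over all pseudogenes the level was 14.2 ± 2.21 CPM in the non-targeting and 13.6 ± 1.07 CPM in the mCherry-targeting libraries. With them added to the genes the difference of the groups was 1.21-fold.

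The other genes of the region had few reads. Between the first and the last member lie 19 other genes of the table, of which 13 had no count, and 1, the ribosomal protein pseudogene RPL23AP2, had more than 10 counts in a library. Between CYP4F3 and CYP4F2 lie 13 genes with 3 counts in all, CYP4F12 and a group of olfactory receptor genes among them. The protein-coding genes directly beside the tested members were CYP4F8, CYP4F12 and CYP4F11, described above, with OR10H1 at 0 counts and PGLYRP2, an amidase gene that cleaves peptidoglycan, at no more than 1 count.

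**Figure D2:**
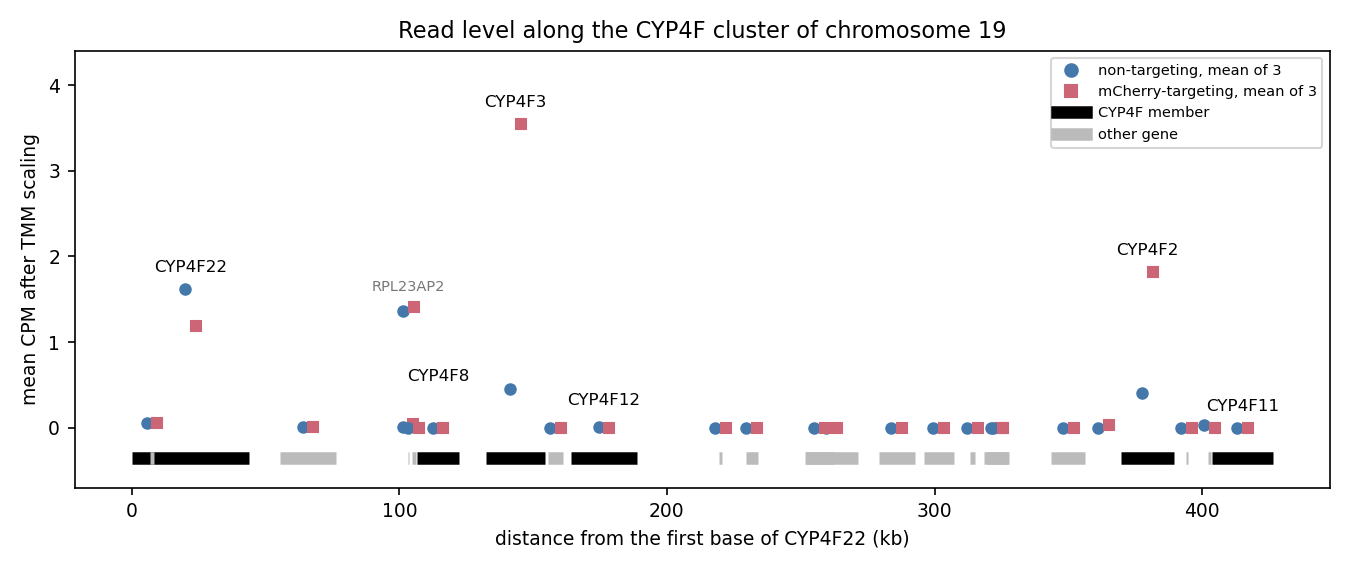
Mean level of each gene between the first and last CYP4F member, in CPM after TMM scaling, against distance from the first base of CYP4F22 in kb. Circles are the non-targeting and squares the mCherry-targeting group (mean of 3), and bars under 0 give the extent of members (black) and other genes (grey). CYP4F3 and CYP4F2 are the genes with a large gap between the groups, and most genes lying between them are at 0.

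Within 500 kb of the cluster on either side, 18 of 61 other genes were tested. By edgeR 0 passed in either direction, with 6 lower and 0 higher at an unadjusted p under 0.05 (6.09% and 10.0% of all genes tested). Of the 18, 15 had a log2 fold change below 0, and the median was -0.19 against -0.0037 over all tested genes. Their median GC content was 57.2% against 48.1% over all tested genes, and its part in the lower median was not tested. The tropomyosin gene TPM4 was at 154.1 ± 7.78 and 149.4 ± 8.15 CPM, and AKAP8L, which encodes a nuclear anchoring protein, at 122.7 ± 2.53 and 113.9 ± 2.46 CPM (SD, n = 3 each). The 18 log2 fold changes ran from -0.50 to 0.50.

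Symbols beginning with CYP4 outside the members number 31, and 17 of these are the CYP4F pseudogenes described above. Of the 31, 20 had no count and 6 were tested: the 3 pseudogenes already given, the antisense gene CYP4A22-AS1, the brain cholesterol hydroxylase gene CYP46A1, which belongs to another family, and CYP4V2. CYP4V2, a fatty acid hydroxylase gene known from the eye, was the only enzyme gene of the CYP4 family among these 6. It was at 18.2 ± 0.634 and 20.1 ± 0.518 CPM (SD, n = 3 each), with a log2 fold change of 0.15 ± 0.10 (SE). CYP4A11, the other main source of 20-HETE, had at most 2 counts in a library, and CYP4X1 likewise at most 2. CYP4A22, CYP4B1 and CYP4Z1 had none. By edgeR 0 of the 6 passed, and 0 at an unadjusted p under 0.05. Log2 fold changes of the 6 ran from -0.28 to 0.45 with a median of 0.18.

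Over all families 20 of 49 protein-coding P450 genes outside CYP4F were tested. By edgeR 0 passed, and 0 at an unadjusted p under 0.05. Log2 fold changes ran from -0.51 to 0.27 with a median of 0.05, and 11 were above 0. CYP20A1, whose substrate is not established, was at 26.1 ± 1.35 and 24.99 ± 0.0870 CPM, the vitamin D 25-hydroxylase gene CYP2R1 at 18.1 ± 1.16 and 19.4 ± 1.55 CPM, and CYP4V2 as above. Among the 6 electron donors 0 passed and 0 had an unadjusted p under 0.05. POR, which serves the CYP4F enzymes, was at 57.4 ± 7.69 and 51.0 ± 0.818 CPM, the cytochrome b5 reductase gene CYB5R3 at 128.8 ± 13.6 and 118.4 ± 14.3 CPM, and the outer mitochondrial membrane cytochrome gene CYB5B at 96.5 ± 6.65 and 96.8 ± 4.67 CPM (SD, n = 3 each).

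Genes that act on the products of omega-hydroxylation include the dehydrogenases that make dicarboxylic acids and the peroxisomal enzymes that shorten them. Of 20, 18 were tested. By edgeR 0 passed, with 1 higher and 4 lower at an unadjusted p under 0.05 (10.0% and 6.09% of all genes tested), and the median log2 fold change was 0.03. HSD17B4, the multifunctional enzyme of peroxisomal beta-oxidation, was at 109.8 ± 2.88 and 112.4 ± 9.18 CPM, and ADH5, an alcohol dehydrogenase gene, at 93.1 ± 10.3 and 98.6 ± 8.45 CPM. ABCD3, which imports such acids into the peroxisome, was at 95 ± 7.61 and 121.5 ± 6.46 CPM (SD, n = 3 each), with a log2 fold change of 0.36 ± 0.09 (SE).

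Genes for arachidonic acid release and for leukotrienes and 20-HETE were measured as the source and fate of CYP4F substrates. Of 24, 18 were tested, with 0 passing by edgeR and 2 higher and 2 lower at an unadjusted p under 0.05 (10.0% and 6.09% of all genes), at a median of -0.02. LTA4H, the enzyme that makes leukotriene B4, was at 153.2 ± 9.87 and 156.6 ± 9.12 CPM, PTGES3, a prostaglandin E synthase and HSP90 co-chaperone gene, at 482.0 ± 30.1 and 426.5 ± 20.3 CPM, and MBOAT7, which returns arachidonate to phosphatidylinositol, at 81.2 ± 6.73 and 66.7 ± 7.40 CPM (SD, n = 3 each). ALOX5, which starts leukotriene synthesis, was at 1.56 ± 0.641 and 1.26 ± 0.139 CPM, and GPR75, described as a 20-HETE receptor, at 5.66 ± 0.916 and 5.83 ± 0.382 CPM, both chosen for their roles.

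The vitamin K and E list had 11 of 12 genes tested, with 0 passing by edgeR, 1 higher and 0 lower at an unadjusted p under 0.05 (10.0% and 6.09% of all genes) and a median of -0.04. VKORC1L1, a vitamin K epoxide reductase gene, was at 134.6 ± 8.17 and 136.5 ± 4.76 CPM, and GGCX, the vitamin K dependent carboxylase, at 105.0 ± 6.78 and 94.1 ± 8.39 CPM (SD, n = 3 each). The acylceramide list around CYP4F22 had 15 of 19 tested, with 0 passing, 2 higher and 2 lower at an unadjusted edgeR p under 0.05, beside the same shares of all genes, and a median of -0.04. Its most abundant genes were the fatty acid elongation gene HACD3 at 283.0 ± 16.9 and 269.8 ± 30.0 CPM, the ceramide synthase gene CERS2 at 253.6 ± 35.6 and 218.9 ± 11.4 CPM and HSD17B12, another elongation gene, at 94.3 ± 5.12 and 118.4 ± 6.19 CPM (SD, n = 3 each).

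Of 26 transcription factors of lipid and drug metabolism, 22 were tested, and 16 of these had a log2 fold change below 0, with a median of -0.17 against -0.0037 over all tested genes. Median GC content of the 22 was 56.0% against 48.1% over all tested genes, and its part in the lower median was not tested. By edgeR 0 passed, with 4 lower and 0 higher at an unadjusted p under 0.05 (6.09% and 10.0% of all genes). SREBF2, the sterol regulator, was at 357.0 ± 34.4 and 315.0 ± 42.6 CPM, the AP-1 subunit gene JUN at 151.8 ± 18.0 and 166.3 ± 24.0 CPM, and ARNT, partner of the dioxin receptor, at 136.7 ± 1.83 and 124.8 ± 5.75 CPM (SD, n = 3 each). PPARA, a fatty acid receptor gene, was at 65.7 ± 2.71 and 58.4 ± 7.43 CPM.

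Across these context lists limma-voom also called 0 genes, and DESeq2, which called 1.45% of all genes it gave an adjusted p, called 2, ABCD3 and PLA2G6, a phospholipase gene, with log2 fold changes of 0.35 and -0.43 and DESeq2 adjusted p = 0.0482 and 0.0256. Without NT1 edgeR called 9 of the context genes, 3 of them higher, where it called 8.98% of all genes (5.68% higher). The share of context genes called in that fit was not computed, so nothing is read from the 9. The plot of log2 fold changes by list sets CYP4F3 and CYP4F2 beside them.

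**Figure D3:**
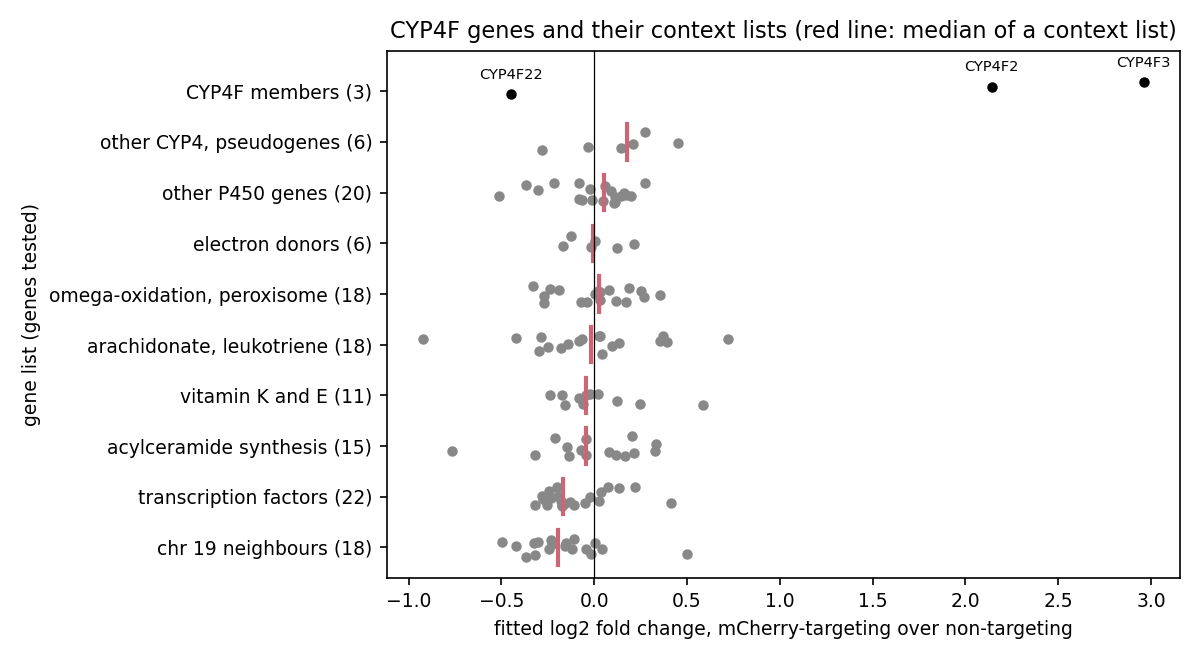
Fitted log2 fold change of each tested gene, mCherry-targeting over non-targeting, for the CYP4F members (black) and 9 context lists (grey), with the number tested in brackets and the median of each context list as a red line. CYP4F3 at 2.96 and CYP4F2 at 2.14 lie beyond every tested context gene, the highest of which is PTGS1 at 0.72. The members were picked with these values known, so their place is a description only.

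Markers of cell types in which CYP4F genes are known were near 0. Of 10 neutrophil and other blood markers 0 were tested, with a summed level of 0.211 to 0.355 CPM in the non-targeting and 0.208 to 0.238 CPM in the mCherry-targeting libraries, and PTPRC, MPO, ELANE, S100A8, S100A9, FCGR3B and HBB at 0. Of 10 hepatocyte markers 1 was tested, and the sum was 1.94 to 2.59 and 1.57 to 2.75 CPM, with APOB, TTR and SERPINA1 at 0. The seminal vesicle and prostate markers summed to 3.13 to 3.63 and 2.25 to 3.52 CPM, with SEMG1 and SEMG2 at 0. The keratinocyte markers summed to 14.0 to 16.7 and 15.8 to 19.01 CPM, almost all of it KRT10, with KRT1, KRT5, KRT14, LORICRIN, FLG and IVL at 0. The intestinal markers summed to 32.4 to 39.6 and 32.5 to 35.6 CPM, almost all of it CDX2, with FABP2 and SI at 0.

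The genes whose profile over the 6 libraries was most like that of a member were found by the mean absolute difference of log2 CPM, centred on each gene's mean, among 16459 genes with at least 1 CPM on average. For CYP4F2 the closest was MUC19, a secreted mucin gene on chromosome 12, at 0.35 log2 units, then the aminopeptidase gene LVRN at 0.48 and the chromosome 1 pseudogene ENSG00000227242.2 at 0.52. For CYP4F3 the closest were that pseudogene at 0.68, MUC19 at 0.71 and CYP4F2 at 0.72. MUC19 had 83, 72 and 32 counts in NT1 to NT3 and 325, 177 and 107 in TAR1 to TAR3. In MUC19, as in CYP4F3 and CYP4F2, TAR1 was the highest library. For CYP4F22 the closest were the ribokinase gene RBKS at 0.068, ENSG00000272960.1 at 0.070 and the antisense transcript MBTPS1-DT at 0.072. Likeness is a description over 6 libraries that share the groups.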

How the data were processed

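The values are raw read counts by gene as the authors deposited them, with a column for each library. RNA was poly(A)-enriched, randomly primed and strand-marked, per the labels' protocols. Cutadapt 4.4, STAR 2.7.4a and hg19 (GRCh37) are named, per the submitters' processing notes. Which counter was used, and how it treated strand, is not stated. Members and gene lists were chosen with earlier results of these data known.

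Counts were fitted in R 4.3.3 with edgeR 4.0.16 (TMM, filterByExpr, quasi-likelihood F test, robust, group only) over 19676 genes, with Benjamini-Hochberg adjustment and calls under 0.05. The fit was tested on simulated data. Alternatives were DESeq2-type size factors, no filter, DESeq2 1.42.0, limma-voom (limma 3.58.1), a replicate block, a GC correction (loess trend of log2 CPM on GC content, span 0.5), block with GC correction, a term for a 7SK share above 1%, and leaving out each library. Identifiers were matched without version, and 51996 of 57820 carried a symbol. Positions, lengths and GC content come from GENCODE 29 (GRCh38), other than the files' build. Upstream sequences come from RefSeq (GRCh38.p14). The named genes were the members, the called genes, up to 3 of the highest mean CPM in each list, the direct neighbours and the 3 genes most like each member; PLA2G6, ALOX5, GPR75, PPARA, PTGS1, the CYP4F pseudogenes, RPL23AP2 and CYP4 genes with few or no counts were added after their values were seen. No sample or column was left out. Some genes that the rule names are not reported here.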

Additional observations from a re-analysis of the deposited data

How the results depend on the processing

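The log2 fold changes kept their direction in all 14 alternatives each, from 2.36 to 3.28 for CYP4F3, 1.65 to 2.44 for CYP4F2 and -0.57 to -0.32 for CYP4F22. The groups of CYP4F3 and CYP4F2 do not overlap, so leaving out a library could not turn their direction. That it was kept is no evidence of a difference. The summed level of the 6 genes had a log2 ratio of 1.39, and 0.27 with the CYP4F pseudogenes added (-0.06 for those pseudogenes alone). Against 2 genes called in all, 0 context genes and 0 members, the counts were 597, 6 and 2 with no filter on low counts, and 712, 6 and 2 with the 7SK term. DESeq2 called 169 genes and 2 context genes, and its adjusted p was missing for the members. limma-voom and the GC correction called 1 gene each. Leaving out 1 library gave 1 to 1806 genes, 0 to 9 context genes and 0 to 2 members, the highest of each without NT1; without TAR3 1 member was called. The cause was not tested.

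Replicate numbers are in the labels, and whether they pair the libraries is not settled. The correlation of same-numbered deviations was 0.36, -0.018 and 0.55. NT1 correlated best with TAR1 and NT3 with TAR3, but NT2 correlated best with TAR3 (0.14). With 3 libraries in each group these correlations cannot decide whether a pairing exists. With the number as a replicate block edgeR called 1209 genes, 9 context genes and 2 members, and with block and GC correction 6 genes and 1 member. The counts behind CYP4F3 and CYP4F2 in the non-targeting libraries, between 3 and 14, limit the precision of their fold changes.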
